A study of Homo sapiens with 4 samples.

Results

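The contacts of the RNAs of 2 globin genes, HBG2 and HBE1, with active enhancers and promoters were described in K562 cells with wild-type RUNX1 and in K562 cells with the RUNX1 R320* change. Members were taken by symbol: every deposited connection whose RNA is named HBG2 (ENSG00000196565.15) or HBE1 (ENSG00000213931.7) was kept. They are 2 of 2637 RNAs, and hold 533 of the 115357 connections in the table, 270 for HBG2 and 263 for HBE1. Together they met 277 of the 33948 elements listed.

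HBG2 encodes the G-gamma chain of fetal haemoglobin and HBE1 the epsilon chain of embryonic haemoglobin. Both genes lie in the beta-globin cluster on the short arm of chromosome 11, where the genes stand in the order in which they are used in development and compete for an upstream group of enhancers, the locus control region. Olfactory receptor genes surround the cluster on both sides and are largely silent in blood cells. K562 is an established human leukaemia line with the BCR-ABL1 fusion and erythroid features, and it makes embryonic and fetal globins rather than the adult beta chain. RUNX1 is a blood transcription factor, and R320* places a stop codon in its C-terminal part.

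GRID-seq links RNA to the DNA beside it through a bivalent linker inside fixed nuclei, so that each molecule read names an RNA and a genomic place. Cells of each genotype, WT and RUNX1 R320*, gave 2 libraries, 4 in all, and no other treatment is labelled. Whether the libraries within a genotype came from separate cultures is not labelled, nor is the number of mutant clones. The authors pooled each genotype into 1 score per connection. A score is either 0, read here as not listed, or above 1.2. The scale of the score and the depth behind it are unknown. There is therefore no spread between replicates, and no genotype difference below was tested.

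The labelled cell type was set against marker genes by asking which were listed as chromatin-bound RNAs. Of 17 erythroid genes 8 were listed, with HBG2, HBE1, the membrane protein gene EPB41 and the transferrin receptor gene TFRC holding most connections. HBG2 and HBE1 are in this count because they are the members. Of 7 lymphoid genes 2 were listed and of 6 myeloid genes 0. A listing is not an expression level, and these small counts do not settle the cell type. Of the 10 globin genes, HBG2 and HBE1 were the ones listed as RNAs. HBG1, the near-identical neighbour of HBG2, was not among the RNAs. Whether reads of HBG1 were counted under HBG2 was not tested.

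HBG2 and HBE1 can hardly be treated as separate measurements. Of the 277 elements, 256 were listed for both RNAs, 14 for HBG2 alone and 7 for HBE1 alone. On other chromosomes the HBE1 score exceeded the HBG2 score by a near constant amount: the median difference was 0.0146 in R320*, and all 99 elements lay within 0.002 of it. In WT the median was 0.0128, with 56 of 62 elements within 0.002. On chromosome 11 the median difference was 0.0185 in WT and 0.0187 in R320*, with 47 of 86 and 46 of 86 elements that close. The RNAs of OR51B5, an olfactory receptor gene whose RefSeq span lies next to the cluster, and of AC104389.4, a clone-named gene, ran in parallel: 272 of the 277 elements were also listed for one or the other. These 4 are called the overlapping RNAs below. Whether reads of 1 transcript were counted under several of these names was not tested.

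**Figure D1:**
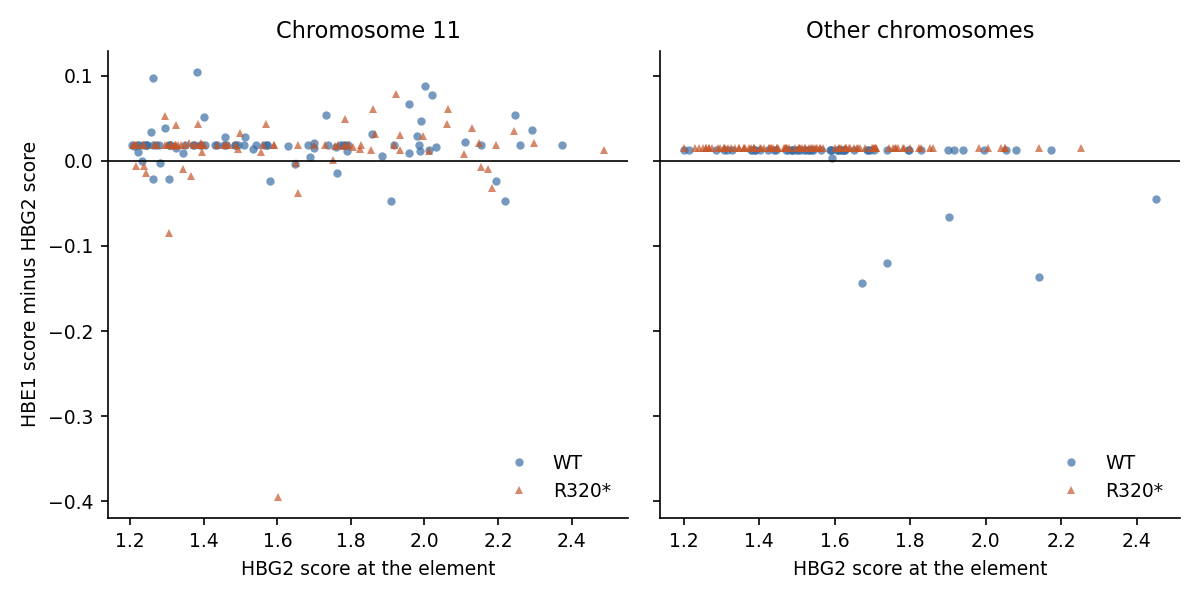
Difference between the HBE1 and the HBG2 score (vertical axis, score units) at every element listed for both RNAs, against the HBG2 score, on chromosome 11 (left) and other chromosomes (right). Circles are WT and triangles R320*. On other chromosomes nearly all points sit on a line near 0.0128 in WT and 0.0146 in R320*, while chromosome 11 is more scattered, with 1 element at -0.39, and 1 chromosome 11 element is not drawn.

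RefSeq (GRCh38.p14) places HBG2 at chr11:5253188-5254781 and HBE1 at chr11:5268345-5269945 (1594 and 1601 bp). The table types some connections as "local" and others of the same chromosome as cis, and the type did not follow the distance from the RefSeq gene. The HBD and HBB enhancers, 16.6 and 26.0 kb from HBG2, were typed cis. The local connections of HBG2 included an enhancer 79.1 kb beyond HBG2 (chr11:5333840-5337082) and an OR51B5 promoter 244.7 kb beyond it (chr11:5499465-5506913). For HBE1 the same elements, also typed local, lay 63.9 and 229.5 kb away. Of all local connections in the table with a RefSeq gene, 300 of 4561 (6.58%) fell outside the RefSeq gene, 96 of them by more than 50 kb.

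Promoters met by the globin RNAs are shown for 4 genes. SMURF1 was picked for its RUNX letters and does not stand for a contact pattern, while the others stand for patterns described below. They are TRIM68, met in cis in both genotypes, COX20, met in trans in WT only, YDJC, met in trans in R320* only, and SMURF1, the R320*-only promoter with the highest score among those holding RUNX letters. Each is the 250 bases before the gene start from RefSeq (GRCh38.p14), 5′ to 3′ on the gene's strand. The positions are chr11:4608232-4608481 (minus), chr1:244835226-244835475 (plus), chr22:21630023-21630272 (minus) and chr7:99144109-99144358 (minus). Capitals mark a match to the RUNX letters TGTGGT or TGCGGT, searched on both strands.
TRIM68: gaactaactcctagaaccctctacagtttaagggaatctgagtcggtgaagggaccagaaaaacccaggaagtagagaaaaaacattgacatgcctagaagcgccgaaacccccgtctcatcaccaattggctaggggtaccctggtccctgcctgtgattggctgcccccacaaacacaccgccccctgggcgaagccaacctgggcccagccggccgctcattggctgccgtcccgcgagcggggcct
COX20: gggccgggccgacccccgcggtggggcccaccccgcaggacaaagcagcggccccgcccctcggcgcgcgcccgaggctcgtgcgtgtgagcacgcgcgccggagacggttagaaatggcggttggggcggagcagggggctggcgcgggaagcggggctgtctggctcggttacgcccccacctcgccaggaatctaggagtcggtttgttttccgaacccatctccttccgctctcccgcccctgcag
YDJC: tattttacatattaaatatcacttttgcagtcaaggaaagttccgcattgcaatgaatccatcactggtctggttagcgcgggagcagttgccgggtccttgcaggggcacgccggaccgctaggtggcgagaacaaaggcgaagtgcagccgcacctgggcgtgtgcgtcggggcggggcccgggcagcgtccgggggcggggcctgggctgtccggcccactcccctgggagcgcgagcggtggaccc
SMURF1: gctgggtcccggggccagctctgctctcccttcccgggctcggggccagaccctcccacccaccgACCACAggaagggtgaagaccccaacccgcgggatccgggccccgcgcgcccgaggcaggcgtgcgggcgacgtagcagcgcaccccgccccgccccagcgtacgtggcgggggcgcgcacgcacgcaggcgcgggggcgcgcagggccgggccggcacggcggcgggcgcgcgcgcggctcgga

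In SMURF1 the match was TGTGGT on the reverse strand, 185 bases before the gene start, and the other 3 windows held none. Of 87 promoter elements met by the globin RNAs, 45 wholly contained the 250-base RefSeq window of the gene they are labelled with. RUNX letters were found in 4 of these 45 (8.89%), against 16.3% of 35097 RefSeq promoters. In trans they were found in 0 of 13 promoters met in WT only and in 3 of 18 met in R320* only (16.7%). The GATA letters (AGATAA or AGATAG, as well as TGATAA or TGATAG, on either strand) were found in 4 of 45, against 22.3%. The 35097 promoters were not limited to active elements, as the 45 are, so the sets are unlike and the percentages do not show a depletion. A match is a string of letters, and binding was not measured.

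Close to the locus, the globin RNAs met the same elements in both genotypes. Within 100 kb of its gene, HBG2 RNA was listed at 10 of 14 elements and HBE1 RNA at 9 of 12, each of them in WT and in R320*. From 100 kb to 1 Mb HBG2 was listed at 24 of 32 elements, 23 in both genotypes, and HBE1 at 26 of 34, 25 in both. For RNAs in general 80.5% of connections under 100 kb and 61.2% of those from 100 kb to 1 Mb were listed in both.

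The enhancer labelled HBB (chr11:5224318-5227186), which covers the adult beta-globin gene, had an HBG2 score of 2.00 in WT and 1.92 in R320*. Its HBE1 score was 2.09 in WT and 2.00 in R320*. The enhancer labelled HBD (chr11:5232261-5236595), over the minor adult delta-globin gene, had an HBG2 score of 1.96 in WT and 1.86 in R320*. Its HBE1 score was 2.02 and 1.92. Both adult-globin enhancers were thus listed for HBG2 and HBE1 RNA in each genotype. The differences were -0.08 and -0.10 units for HBG2 and -0.09 and -0.10 for HBE1. Both enhancers were also listed for OR51B5 and AC104389.4 in each genotype, and which transcript the reads came from was not tested.

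A promoter and an enhancer labelled AC104389.1, a clone-named gene on the HBB side, had the highest scores within 100 kb. The promoter (chr11:5204692-5205129) scored 2.29 in WT and 2.30 in R320* for HBG2, and 2.33 and 2.32 for HBE1. The enhancer (chr11:5208993-5209201) scored 2.25 and 2.24 for HBG2, and 2.30 and 2.28 for HBE1. Neither moved by more than 0.03 units between genotypes.

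The other elements met within 100 kb lay among olfactory receptor genes on the HBB side, where 8 of 8 elements were listed for either RNA. For HBG2 they were the OR51V1 enhancer at 1.73 in WT and 1.78 in R320*, and 3 elements labelled OR52A1. The OR52A1 promoter stood at 2.01 and 1.93, and its enhancers at 1.79 and 1.78 and at 1.98 and 2.06. On the opposite side 2 of 5 elements were listed for HBG2 and 1 of 3 for HBE1.

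The members' own gene bodies were hardly represented. HBG2 RNA was not listed at the element that holds the HBG2 gene (chr11:5239548-5257196, a promoter), where HBE1 scored 1.29 in WT and 1.28 in R320*. HBE1 RNA was not listed at the element that holds HBE1 and its upstream stretch (chr11:5264171-5293351, an enhancer), where HBG2 scored 1.78 and 1.77. An enhancer between the genes (chr11:5260232-5260735) was listed for HBE1 at 1.80 and 1.78 and not for HBG2. Each of these values was printed a second time in the table for another element of the same RNA: the local HBG2 pair 1.77897 and 1.76502 recurs at the OR51B5 enhancer. HBE1's 2 values at the HBG2-labelled elements recur at the OR51B5 promoter and enhancer. Such repeated pairs made up 1.78% of the table, 2.96% of HBG2 and 3.80% of HBE1 connections, and no source used here says what they stand for.

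Farther along on the HBE1 side, the TRIM6 enhancer (chr11:5600261-5601147) scored 2.37 in WT and 2.49 in R320* for HBG2, and 2.39 and 2.50 for HBE1. TRIM6 and its neighbour TRIM5, an antiviral restriction factor, belong to a family of tripartite-motif genes on the far side of the cluster.

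**Figure D2:**
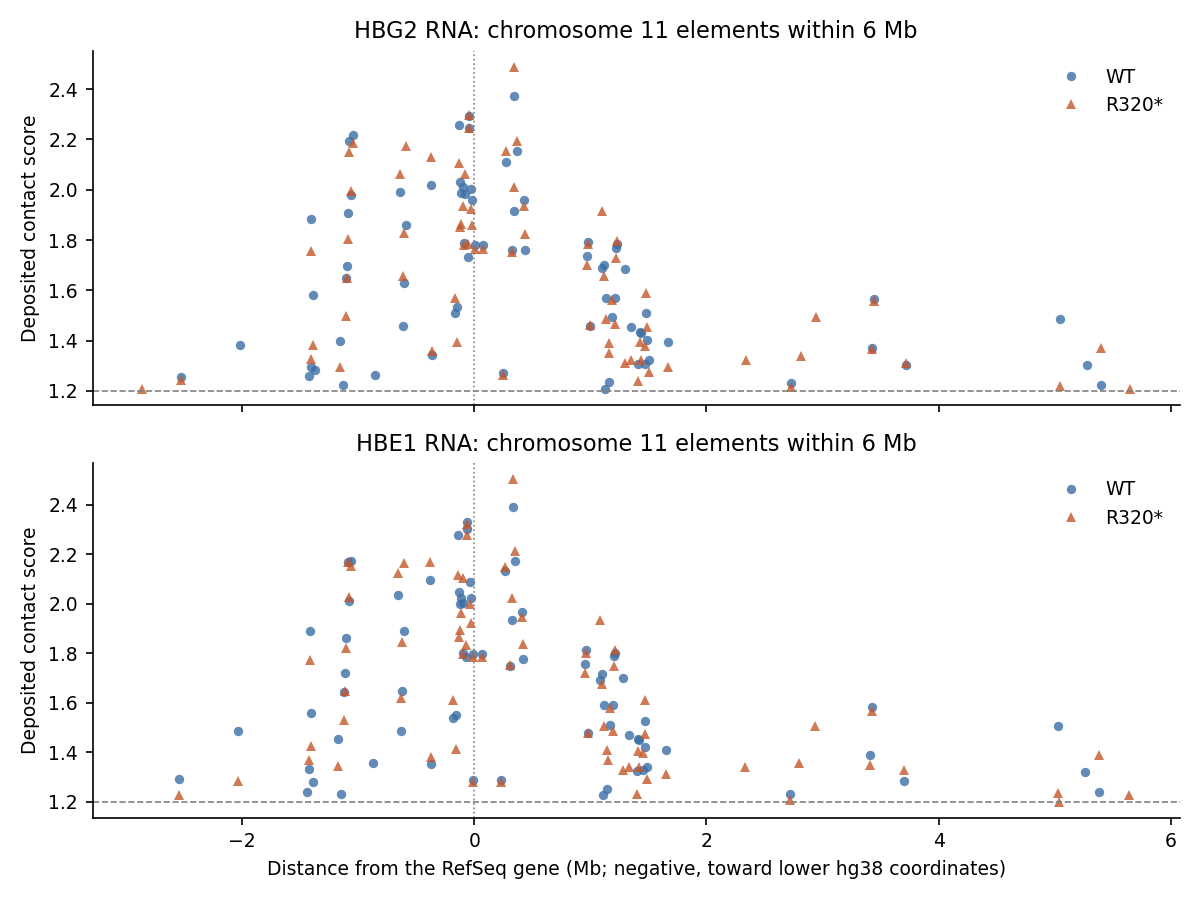
Deposited contact score (vertical axis) of HBG2 RNA (top) and HBE1 RNA (bottom) at chromosome 11 elements within 6 Mb, against distance from the RefSeq gene. Circles are WT, triangles R320*, and the dashed line is the table's minimum of 1.2. The TRIM6 enhancer stands at 2.37 and 2.49 for HBG2, most circles beside the gene have a triangle close by, and 1 element is not drawn.

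Score differences between genotypes shared a direction in some stretches of the chromosome and were mixed in others, and none was large. Among the 80 connections of HBG2 listed in both genotypes the median difference, R320* minus WT, was -0.01 units (SD over connections 0.13), with 36 higher and 44 lower. For the 81 of HBE1 it was -0.01 units (SD 0.13), with 33 higher and 48 lower. Over all 52089 shared connections of the table the median was 0.04 (SD 0.25). Relative to that median, 27 were higher and 53 lower for HBG2, and 24 higher and 57 lower for HBE1. No globin connection differed by 1 unit or more, which 0.175% of the table's shared connections did. None differed by 0.5 units either, against 5.62%.

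A block of 6 shared elements on the HBB side, from the TRIM68 promoter through OR51D1 and OR51E1 to MMP26, was higher in R320* at all 6 elements for both RNAs. A seventh element of the stretch, the TRIM21 promoter, was listed in WT only, at 1.26 for HBG2 and 1.36 for HBE1. The median difference of the 6 was 0.15 units for HBG2 and 0.11 for HBE1. At the larger of the OR51E1 enhancers (chr11:4657692-4660303) HBG2 scored 1.86 in WT and 2.17 in R320*, and HBE1 1.89 and 2.16. At the TRIM68 promoter HBG2 scored 1.99 and 2.06, and at the MMP26 promoter 2.02 and 2.13. OR51E1 encodes an olfactory receptor found in prostate, and MMP26 a matrix metalloproteinase whose gene sits among the receptors.

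Farther out on the same side, in the stretch that holds STIM1, a calcium sensor of the endoplasmic reticulum, and RRM1, the large subunit of ribonucleotide reductase, 8 of 10 shared elements were lower in R320* for each RNA. The medians were -0.07 units for HBG2 and -0.06 for HBE1. A STIM1 promoter (chr11:3852549-3861262) scored 1.58 and 1.38 for HBG2. A further 3 elements of this stretch were listed in WT only, and 0 in R320* only, for each RNA.

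Near OR52A5, between that stretch and the cluster, both enhancers were lower in R320*: 2.26 and 2.11, and 2.03 and 1.85, for HBG2. The 11 shared elements there, up to AC104389.1, were mixed, with 4 higher and 7 lower for HBG2 and 3 and 8 for HBE1. On the other side of the cluster 5 of 7 elements labelled AC104389.4, OR52B6, TRIM6 and TRIM5 were higher in R320* for HBG2 and 6 of 7 for HBE1, by medians of 0.04 units. Farther out, the 21 shared elements from FAM160A2 to ZNF215 were mixed, with 8 higher and 13 lower for each RNA. Adjacent elements can share reads and are not replicates, so a stretch counts as 1 observation.

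**Figure D3:**
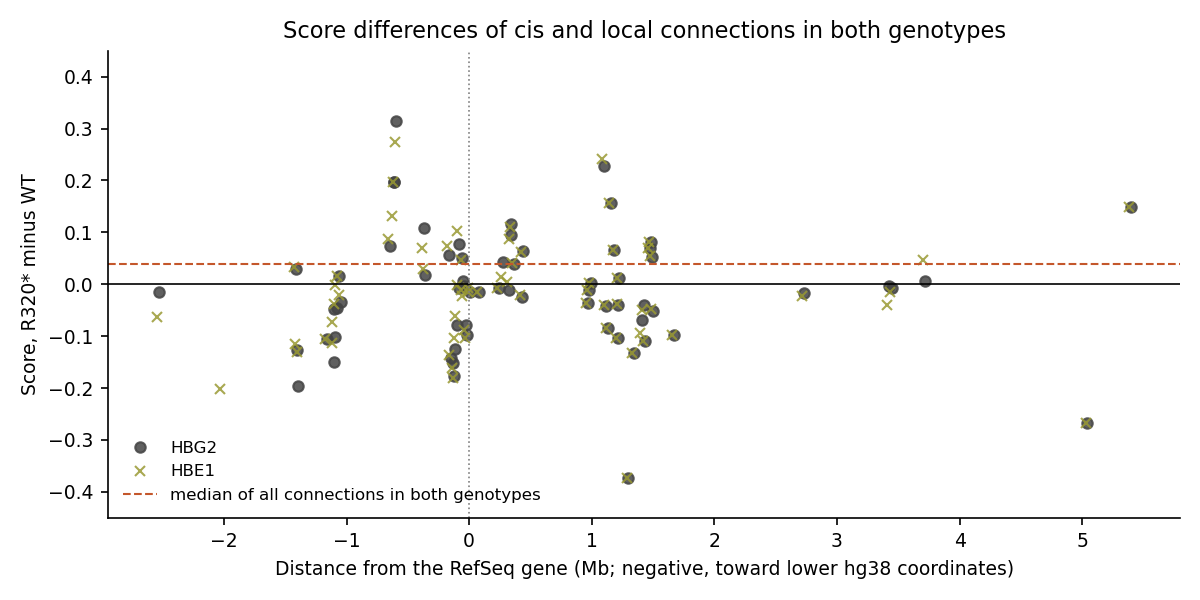
Score difference, R320* minus WT (vertical axis, score units), of every chromosome 11 connection within 6 Mb listed in both genotypes, against distance from the RefSeq gene. Filled circles are HBG2 and crosses HBE1, and the dashed line is the median of all shared connections of the table, 0.04. The TRIM68 to MMP26 block stands above 0, the lowest point is the DNHD1 enhancer at -0.37, and 1 element is not drawn.

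With distance the lists of the genotypes diverged. From 1 to 10 Mb HBG2 met 47 of 320 elements, 35 in both genotypes (74.5%), and HBE1 47 of 320, 36 in both (76.6%), where all RNAs had 30.5%. Beyond 10 Mb each met 21 of 1627, 6 of them in both for HBG2 (28.6%) and 7 for HBE1 (33.3%), against 10.6%. In all, HBG2 had 85 cis connections in WT and 85 in R320*, 71 of them in both genotypes. HBE1 had 88 and 88, with 75 in both. Of the table's cis connections 51.4% were listed in both. The 14 WT-only and 14 R320*-only connections of HBG2 were low, with medians of 1.27 and 1.33 against 1.65 in WT for shared ones.

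Among the single cis elements with the largest differences, an enhancer in DNHD1 (chr11:6553605-6556848), which encodes a dynein-related protein, stood at 1.68 in WT and 1.31 in R320* for HBG2, and at 1.70 and 1.33 for HBE1. An SBF2 enhancer (chr11:10297749-10298721) stood at 1.49 and 1.22 for HBG2. The AC068733.3 enhancer (chr11:6356801-6357306) went the other way, at 1.69 and 1.92. At NAV2, a gene of neuronal outgrowth, a promoter (chr11:19979868-19981600) had 1.25 in WT and 1.59 in R320* for HBG2, and 1.27 and 1.61 for HBE1. An enhancer of the same gene (chr11:19960948-19961691) separated the RNAs: HBG2 had 1.54 and 1.60, and HBE1 1.56 and 1.21.

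The SOX6 gene, whose protein represses the embryonic globin gene, was contacted at an intragenic enhancer (chr11:16291518-16300841), more than 10 Mb from the cluster. HBG2 scored 1.35 in WT and 1.21 in R320* there, and HBE1 1.37 and 1.23. Beyond the centromere, on the long arm, HBG2 was listed at 2 elements and HBE1 at 1, all in a single genotype.

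In trans the picture was different: few elements were shared and R320* held more. HBG2 RNA met 66 elements on other chromosomes in WT and 108 in R320*, 1.64 times as many (log2 ratio 0.71). HBE1 RNA met 62 and 102 (log2 ratio 0.72). With a minimum score of 1.5 the numbers were closer, 44 and 60 for HBG2 (log2 ratio 0.45) and 45 and 55 for HBE1 (log2 ratio 0.29). Only 6 trans connections of HBG2 (3.57%) and 4 of HBE1 (2.50%) were listed in both genotypes, where 11.5% of the table's trans connections were. R320*-only connections made up 60.7% of HBG2's and 61.25% of HBE1's, against 41.5% in the table, and WT-only ones 35.7% and 36.25%, against 47%.

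Among 72 RNAs with a mean of at least 25 trans connections, 9 had a ratio at least as high as HBG2's and 7 at least as high as HBE1's, themselves included. The median log2 ratio was 0.05, and the middle 95% of RNAs ran from -2.74 to 1.38. At least 1.5-fold more trans connections in R320* were seen in 16.7% of the 72, that is 12 RNAs, and 4 of these 12 were the overlapping RNAs. OR51B5 had 55 and 89, and AC104389.4 had 74 and 118. With both globin RNAs inside the range of the other RNAs and without replicates, the higher number in R320* is a description of these pooled scores.

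The median score was 1.59 for the 60 WT-only and 1.52 for the 102 R320*-only connections of HBG2, and 1.60 and 1.53 for HBE1. Only 3 of HBG2's 66 WT trans scores and 12 of its 108 R320* scores were under 1.3. Under 1.5 were 22 of the 66 WT scores (33.3%) and 48 of the 108 R320* scores (44.4%), and for HBE1 17 of 62 (27.4%) and 47 of 102 (46.1%). Its cis connections in a single genotype, by contrast, had the medians of 1.27 and 1.33 given above.

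Trans contacts listed in both genotypes lay mostly on chromosomes 9 and 22. Of all trans connections, these chromosomes held 13.1% for either globin RNA and 15.8% in the table. Of those in both genotypes they held 5 of 6 for HBG2 and 3 of 4 for HBE1, against 34.6% of the table's shared trans connections. The highest was an enhancer of UBE2L3, a ubiquitin-conjugating enzyme gene (chr22:21582791-21590156), at 1.80 in WT and 2.25 in R320* for HBG2 and 1.81 and 2.27 for HBE1, the largest differences of all. A RSPH14 promoter (chr22:23069665-23070763) stood at 1.99 and 2.01 for HBG2 and 2.01 and 2.02 for HBE1. PPM1F, a phosphatase gene (chr22:21937801-21939044), was listed for HBG2 at 1.63 and 1.76.

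On chromosome 9 an AIF1L enhancer (chr9:131101305-131103247) had 1.47 and 1.86 for HBG2 and was listed for HBE1 in R320* only, at 1.88. A USP20 enhancer (chr9:129871058-129871470) had 1.54 and 1.39 for HBG2. The remaining shared contact was the promoter of CASS4, an adhesion scaffold gene, on chromosome 20 (chr20:56409445-56416734), with 1.47 and 1.37.

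The highest scores of WT-only contacts were again on these chromosomes. For HBG2 they were a LAMC3 enhancer (chr9:131011724-131012470) at 2.45, a RSPH14 enhancer (chr22:23119449-23120331) at 2.17, and an enhancer near AL161733.1 (chr9:130946777-130947402) at 2.14. LAMC3 encodes a laminin chain of basement membranes. TMEM268 on chromosome 9 (2.08), CR392039.4 on chromosome 21 (2.05) and RDH10-AS1 on chromosome 8 (1.94) came next.

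R320*-only contacts were led by an AIF1L promoter (chr9:131095977-131097088), with 2.14 for HBG2 and 2.16 for HBE1. The YDJC promoter element (chr22:21623921-21633858) had 2.05 and 2.07, and an enhancer near LINC00896 on chromosome 22 had 2.05 and 2.07. On chromosome 1, enhancers near SRRM1, a splicing coactivator gene, and AC239799.2 had 2.04 and 1.98 for HBG2. A SLC39A11 promoter on chromosome 17 had 1.96 and was listed for HBG2 alone.

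ABL1 and BCR, the partners of the K562 fusion, lie on chromosomes 9 and 22, and AIF1L, LAMC3 and NUP214 are neighbours of ABL1. In this 201.6 kb stretch (chr9:130938777-131140377) HBG2 met 7 elements, its largest trans cluster. Elements of chromosome 22 met many RNAs in general: the table holds 3128 trans connections per 1000 elements there, against 778 on chromosome 1. For HBG2 the figures were 12.7 and 7.67 per 1000. The part of rearranged or amplified DNA in these contacts was not tested.

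By chromosome, most trans elements lay on chromosome 1, with 32 for HBG2 and 31 for HBE1, and chromosome 6, with 31 and 30. Next came chromosome 9 with 13 and 12, and chromosome 7 with 11 and 11. The fifth place was shared by chromosomes 5, 8 and 22 with 9 each for HBG2, while HBE1 had 10 on chromosome 5. Chromosome 6 held 18.5% of HBG2's trans connections, against 9.79% of the table's, with 11 in WT, 20 in R320* and 0 in both. Chromosome 12 stood out in direction: all 6 of its elements were WT only for both RNAs, and there 21.3% of the table's trans connections were R320* only, against 41.5% over all chromosomes.

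**Figure D4:**
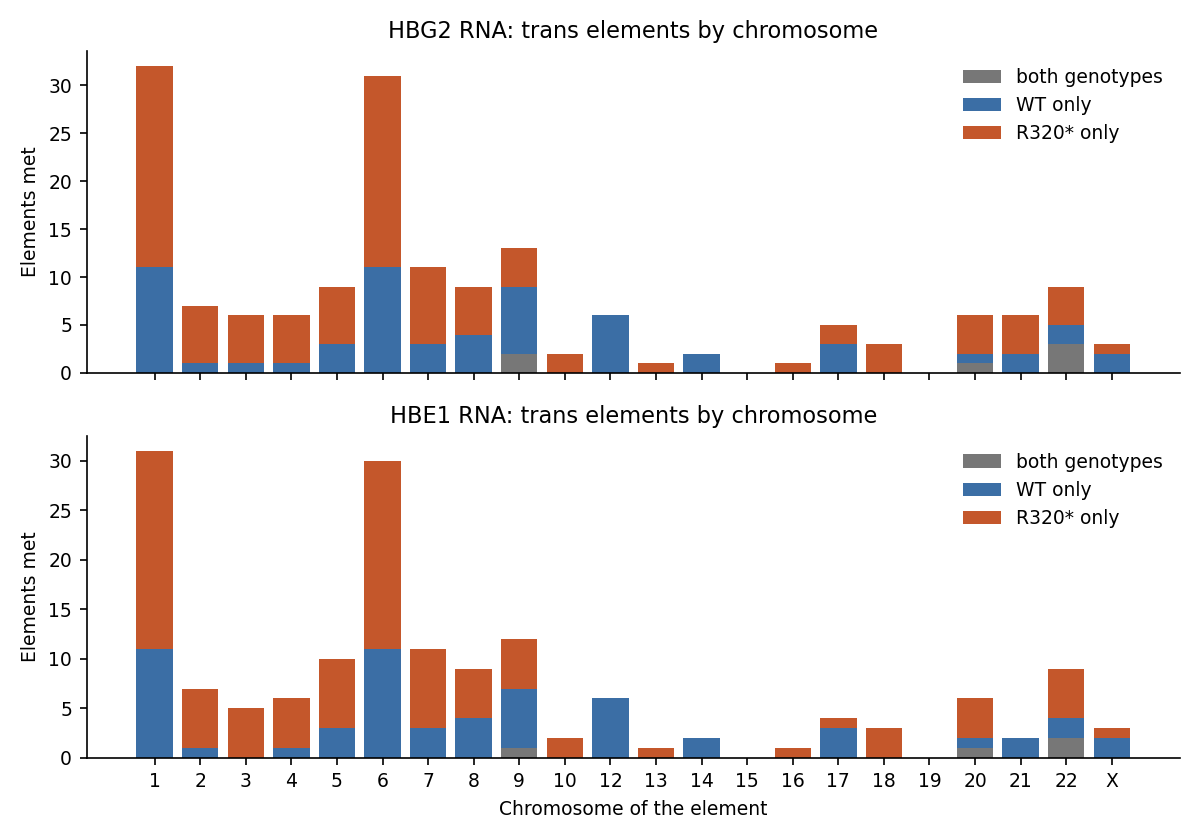
Number of trans elements met (vertical axis) by HBG2 RNA (top) and HBE1 RNA (bottom) on each chromosome, stacked by genotype in which they were listed. Chromosomes 1 and 6 are highest, with 32 and 31 elements for HBG2, mostly listed in R320* only, and the grey parts for both genotypes appear on chromosomes 9, 20 and 22 alone.

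Neighbouring elements were often met together, so the number of places was smaller than that of elements. Merged within 1 Mb, HBG2's 168 trans elements formed 89 places, 38 in WT and 60 in R320*, with 9 in both. HBE1's 160 formed 87, with 37, 57 and 7. Places in both genotypes were 10.1% of HBG2's and 8.05% of HBE1's, against 16.2% over all RNAs. R320*-only places were 57.3% and 57.5%, against 37.9%, and WT-only places 32.6% and 34.5%, against 45.8%. AL138720.1 and MDGA1, a neuronal adhesion gene, both on chromosome 6, had 3 elements each, all R320* only, with highest HBG2 scores of 1.70 and 1.43. Also R320* only were 4 elements in 26.8 kb over NELFE, SKIV2L and STK19 in the major histocompatibility region, and 4 at HJV and LINC01719 on chromosome 1. HJV encodes hemojuvelin, a regulator of iron balance.

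WT-only clusters included 3 elements at SLC4A8 and GALNT6 on chromosome 12 and 3 at HCG11 and BTN1A1 on chromosome 6. ELF3, an epithelial transcription factor gene, had 2 elements in WT only, at 1.49 and 1.69 for HBG2. These and the MYC, RUNX1 and HIF1A elements below were chosen after their values were seen. The MYC promoter was listed in R320* only, at 1.65 for HBG2 and 1.67 for HBE1, with a MYC enhancer at 1.47 and 1.48. The HIF1A promoter was WT only at 1.39 and 1.40. An enhancer labelled RUNX1, the gene changed in these cells, was met in WT only (chr21:35945458-35945889), at 1.61 and 1.62.

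A group of 4 elements over TMPRSS3 and UBASH3A on chromosome 21 was the largest block listed for HBG2 and not for HBE1. All 4 were R320* only, with scores from 1.59 to 1.76. Together with NUP214 (1.80, WT only) and SLC39A11 (1.96, R320* only), they had the highest scores among trans elements listed for HBG2 and not for HBE1.

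Most trans elements of the globin RNAs were also met by RNAs outside the overlapping group. Promoters were 32.1% of HBG2's and 31.25% of HBE1's trans elements, against 32.5% of all elements with a trans connection. Their median length was 3166 and 3024 bp, against 2469 bp. Of 171 trans elements of either RNA, 12 were met by no RNA outside the overlapping ones. Of HBG2's 60 WT-only trans elements, 52 were met by some RNA outside the overlapping group in R320*, and of its 102 R320*-only elements 86 were met by one in WT. Contacts of any type, local and cis included, were counted for these other RNAs. The same shares were not taken over all trans elements, so the counts are not known to be particular to the globin RNAs.

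HBG2 and HBE1 were among the RNAs with most connections: 28 of 2637 RNAs had at least as many as HBG2 and 29 as many as HBE1. An RNA had a median of 33. With both genotypes pooled, trans connections made up 62.2% of HBG2's and 60.8% of HBE1's. The median RNA with a mean of at least 25 connections had 0%. Within a genotype the shares were lower, at 42.9% in WT and 55.1% in R320* for HBG2. For HBE1 they were 40.8% and 53.1%.

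RNAs most like the globin RNAs were ranked by the Jaccard index of their trans elements, the number shared over the number met by either. For HBG2 it was 0.918 with HBE1, 0.806 with AC104389.4 and 0.760 with OR51B5. It then dropped to 0.0422 with GPC5 and 0.0412 with CAPRIN1. For HBE1 the order was HBG2 (0.918), OR51B5 (0.818), AC104389.4 (0.765), RABGAP1L (0.0423) and AC069277.1 (0.0396). RUNX1's own RNA shared 5 trans elements with HBG2 and HBE1, all listed for RUNX1 in R320* only. Of these, 3 were adjacent on chromosome 7 at AC017116.2, LINC00957 and DBNL. Many RNAs met these elements: 28, 32 and 32 at the chromosome 7 elements, 52 at the RSPH14 promoter and 11 at the AP005899.2 enhancer. RUNX1 RNA had 15 trans connections in WT and 26 in R320*.

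The deposited table also shows which RNAs met the globin genes as DNA. The 6 elements of the beta cluster labelled with a globin gene had 17 connections in WT and 29 in R320*, 16 in both, 1 in WT only and 13 in R320* only (43.3%, against 28.5% of all connections of the table). The log2 ratio was 0.77, with a 95% exact binomial interval of -0.14 to 1.73 that covers counting error only. This interval counts the 16 connections in both genotypes once on each side. It thus ignores the pairing and cannot show whether the numbers are equal. Without the overlapping RNAs the numbers were 3 and 15. Over all 16 elements within 100 kb of the cluster, overlapping RNAs included, they were 58 and 69 (log2 ratio 0.25). In that wider set 16 of 74 connections were R320* only (21.6%), below the 28.5% of the table. The HBB enhancer was met by 4 RNAs in WT and 7 in R320*, the HBD enhancer by 4 and 9, and the promoter over HBG2 by 2 and 5. The enhancer over HBE1 had 3 in each.

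RNAs listed at these elements in R320* only were few and recurred. AGTRAP, from chromosome 1, was R320* only at 3 elements, with its highest score of 2.43 at the enhancer between HBG2 and HBE1. HNRNPU, a nuclear scaffold protein gene on chromosome 1, was R320* only at HBB (2.32) and HBD (1.75). MAN1A1, from chromosome 6, was R320* only at 1 element (1.71). These make up all 6 trans connections of the cluster. From chromosome 11, IMMP1L and AC084337.2 were R320* only at 3 elements each, and CELF1 at HBD (1.35). HNRNPU's connections in the whole table numbered 44 in WT and 103 in R320*, IMMP1L's 15 and 30, and AGTRAP's 43 and 50. Those of AC084337.2 numbered 32 and 42, of MAN1A1 80 and 97, and of CELF1 65 and 64.

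Per element, RNAs were ranked by the mean of both scores with an unlisted score taken as 0, which favours RNAs listed in both genotypes. By this rule OR51B5 was first at the HBB enhancer (2.17 and 2.06), the HBD enhancer (2.08 and 1.96), the HBG2 promoter (1.37 and 1.36) and the enhancer between the genes (1.88 and 1.86). In R320* alone others were higher at 3 of these: HNRNPU at HBB (2.32), AC084337.2 at the HBG2 promoter (1.70) and AGTRAP at the enhancer between the genes (2.43). HBG2 led at the enhancer over HBE1 (1.78 and 1.77), and STIM1, at 1.22 in WT only, was alone at an enhancer farther upstream. In the alpha cluster 2 elements were labelled with globin genes, an enhancer at HBM and a promoter at HBQ1. LUC7L, a neighbouring splicing factor gene, was first by mean score at both, with 1.95 and 2.34 at HBM and 2.80 and 2.85 at HBQ1. NPRL3, the gene whose introns hold the alpha-globin enhancers, was R320* only at HBM, where its 2.39 exceeded LUC7L's score in that genotype, and at HBQ1 (2.27). NPRL3 RNA had 0 connections in WT anywhere in the table and 28 in R320*.

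**Figure D5:**
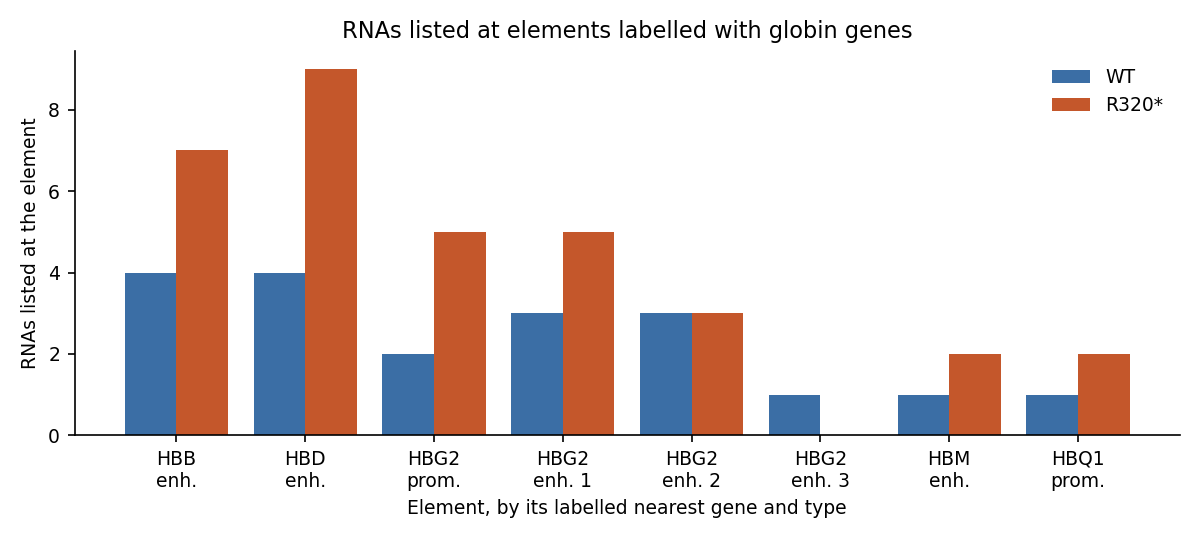
Number of RNAs listed (vertical axis) at each element labelled with a globin gene in WT (blue) and R320* (orange). The HBB and HBD enhancers went from 4 and 4 RNAs in WT to 7 and 9 in R320*, while enhancer 2 of HBG2, over HBE1, had 3 in both.

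The RNAs of genes that control globin switching were placed beside the members by number of connections. Of 40 regulators, 17 were listed as RNAs: 12 had more connections in R320*, 1 had fewer, 1 had equal numbers, 1 was WT only and 2 were R320* only. Over all 2637 RNAs, 1244 had more, 719 had fewer, 174 had equal numbers, 273 were WT only and 227 were R320* only. Their median log2 ratio was 0.23, against 0.09 for all RNAs and 0.35 and 0.34 for HBG2 and HBE1 over all types. At least 1.5-fold more connections were seen in 5.41% of 1293 RNAs with a mean of at least 25. IGF2BP1, an oncofetal RNA binder, had 46 and 64, NFIA 56 and 53, the demethylase gene KDM1A 43 and 43, and LMO2 37 and 48. TFCP2, which binds the gamma-globin promoter, was WT only with 35, and DNMT1, a maintenance methyltransferase, R320* only with 22. Of 23 haem and iron genes 5 were listed, with TFRC at 47 and 46 and SLC25A37, the mitochondrial iron importer, at 23 and 34. Of the 5, 2 were R320* only, ABCB10 with 41 and FLVCR1 with 25, and 1 was WT only, SLC11A2 with 32.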

How the data were processed

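RNA and DNA contacts were measured by GRID-seq in 4 K562 libraries, grouped by the genotype in the labels. Per the submitters' processing notes, cutadapt 1.12, BWA and bedtools were used with hg38. The authors deposited a table of 115357 connections with 1 score for each genotype, pooled over its 2 libraries, and a difference score that equals R320* minus WT. No source used here gives the formula or scale of the score, or the depth. Listed scores exceed 1.2. Connections at 0 were counted as not listed.

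Here the connections were counted by type and genotype, and score differences were taken where both genotypes were listed, with Python 3.11.15 and pandas 2.3.3. Distances run from RefSeq genes (GRCh38.p14). Elements under 1 Mb apart were merged for places. The counting code was tested on simulated data. The members, gene lists and rules were chosen with earlier results of these data known. Named are elements within 100 kb, the highest and most different trans and shared contacts per genotype, the leading chromosomes, RNAs by Jaccard index, and leading list members. No test was possible, since nothing was measured per replicate in the table. Alternatives were a minimum score of 1.5, merging, enhancers or promoters alone, parts of the table, distance and position rules, and centring. The scores of 1 element are not reported here, though counts and medians include it.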

Additional observations from a re-analysis of the deposited data

How the results depend on the processing

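Each of the compared values was recomputed. Of 67 alternative values, 62 stayed within their counting interval or spread, or equalled the main value for ranks and counts of large differences. For median differences the spread was the SD over single connections, 0.13, a wide limit. Centring moved HBG2's median from -0.007 to -0.047 and stayed inside it. Most alternatives were run for both near-duplicate RNAs, so the count of 62 does not measure robustness. The log2 ratio of trans connections was lowest at a minimum score of 1.5, at 0.45 for HBG2 and 0.29 for HBE1, and highest in the larger of the 2 blocks in which the table lists its elements (20020 and 13928), at 0.81 and 0.82. Merging elements in 1 Mb windows moved the Jaccard index between HBG2 and HBE1 to 0.979, and that with the most alike RNA outside the overlapping ones to 0.118 for HBG2 (PRKCB) and 0.117 for HBE1 (FHIT). Leaving out the overlapping RNAs, chosen after seeing the data, moved the log2 ratio at beta-globin elements from 0.77 to 2.32, on 3 and 15 connections. By position plus 100 kb that ratio was 0.25. Counting intervals treat connections as independent, which neighbouring elements are not. For the log2 ratios they also count a connection listed in both genotypes once on each side. No paired analysis was possible because the table gives 1 pooled score per genotype, and no library could be left out. Distance to the RNA's span in the table was not run, as the table gives no span.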
